A study of Daphnia magna with 22 samples.

Results

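The gene models that were lower under caloric restriction in both of 2 clones of the water flea Daphnia magna numbered 30, of the 14657 rows in the deposited count table. A row was a member if its ID began with KZ and stood on at most 4 rows, its mean CPM (the count divided by the library's total and scaled to a common depth) over the 22 libraries was at least 5 and under 2000, the clones differed by less than 3 on the log2(CPM + 1) scale, and the mean of CR minus control on that scale was -0.5 or less in both clones. The limits on ID, level and clone left 2805 rows, of which 142 reached -0.5 in the GB clone, 105 in the IL clone and 30 in both. The mirror rule, 0.5 or more in both clones, was met by 151 rows. The members were chosen by their CR and control values, so their lower level in CR is a description, and counts of calls that use the CR libraries are given only to describe the members.

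Each library held RNA from the body of 1 adult parthenogenetic female whose freshly laid eggs had been removed. The GB clone came from a permanent lake in London and the IL clone from a pond near Jerusalem that is dry in summer. All groups were handled alike, with a daily 2 h bath. Diets began at birth. Control females (3 per clone) received 400000 algal cells per mL per day and a bath of plain medium. CR females (3 per clone) received 100000 cells per mL and the same plain bath. BHB females (3 per clone) were on the full diet with 2.5 mM beta-hydroxybutyrate in the bath, and NMN females (2 per clone) were on the full diet with 0.1 mM nicotinamide mononucleotide. The females were sampled at 75 ± 2 days, where the sign is read from a character lost in the deposited text. Each clone is 1 genotype, and the females of a clone descended from 3 stock grandmothers that each started a cohort divided over the groups; p-values measure the spread between these females.

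Caloric restriction, a lasting cut in food without starvation, lengthens life in many animals, Daphnia included, and a poorly fed Daphnia female grows less and makes fewer eggs. Beta-hydroxybutyrate is a ketone body, a fuel that animals make from fat when food is short. Nicotinamide mononucleotide is a precursor of NAD+, a coenzyme of energy metabolism. In a whole-body sample, fewer cells of a type and less RNA per cell cannot be told apart. The count table pairs no ID with a gene name, and 0 of its 9831 IDs matched an entry of the species' RefSeq table, so the members are given by ID, a few by the rule stated in the methods, and no function, tissue marker or sequence is attached to them.

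Libraries held 8503141 to 14353733 counted reads. The range was 12198335 to 14353733 in control and 10320588 to 12683059 in CR. All 6 CR libraries carry the library numbers 17 to 22, and the highest number among the others is 16, so diet and a step shared by those libraries cannot be told apart. The single most abundant row of the table took 1.91% to 8.32% of the counts in control, 0.161% to 3.23% in CR, 3.88% to 9.45% in BHB and 1.54% to 2.56% in NMN. The median of the 2805 rows was 0.16 above control in CR and 0.10 above control in NMN on the log2(CPM + 1) scale, and under TMM scaling it was -0.00405 and 0.00588. With TMM-scaled library sizes, 56 rows met the rule, all 30 members among them.

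The members spanned low to high levels. Their mean CPM ran from 6.6 to 1665 with a median of 68.0, against a median of 85.5 over the 2805 rows; 6 members lay under 10 CPM, 10 between 10 and 100, and 14 at 100 or more. Together they took 0.582% to 1.31% of the counts in the control libraries and 0.341% to 0.451% in the CR libraries, so that the highest CR library lay below the lowest control library. The share was 0.626% to 1.07% in BHB and 0.808% to 1.14% in NMN. Within groups, the members varied more between females than most rows: their median within-group SD was 0.66 on the log2(CPM + 1) scale, against 0.21 over the 2805 rows, and all 30 lay above that median. A rule that asks for large differences between means of 3 females favours such rows. In the BHB and NMN libraries, which the differences of the rule did not use, the medians were 0.51 and 0.20, and 27 of the 30 lay above the median of the 2805 rows.

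Under restriction, the median member was lower than control by -1.63 in GB and -1.08 in IL on the log2(CPM + 1) scale, where the 2805 rows had medians of 0.26 and 0.05. The differences ran from -6.76 to -0.52 in GB and from -2.72 to -0.51 in IL. In 12 members the level was at least 2-fold lower in both clones on this scale, and in 3 at least 4-fold lower. Any of the 2805 rows with such a difference meets the rule, so the 0.428% of rows that were 2-fold lower are these same 12 members. The difference was larger in GB in 21 members and in IL in 9, which was not tested because the rule used both. Just inside the threshold stood KZS08085 (-1.22 in GB and -0.51 in IL), and just outside it were rows at -0.50 and -0.80 and at -0.54 and -0.50.

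**Figure D1:**
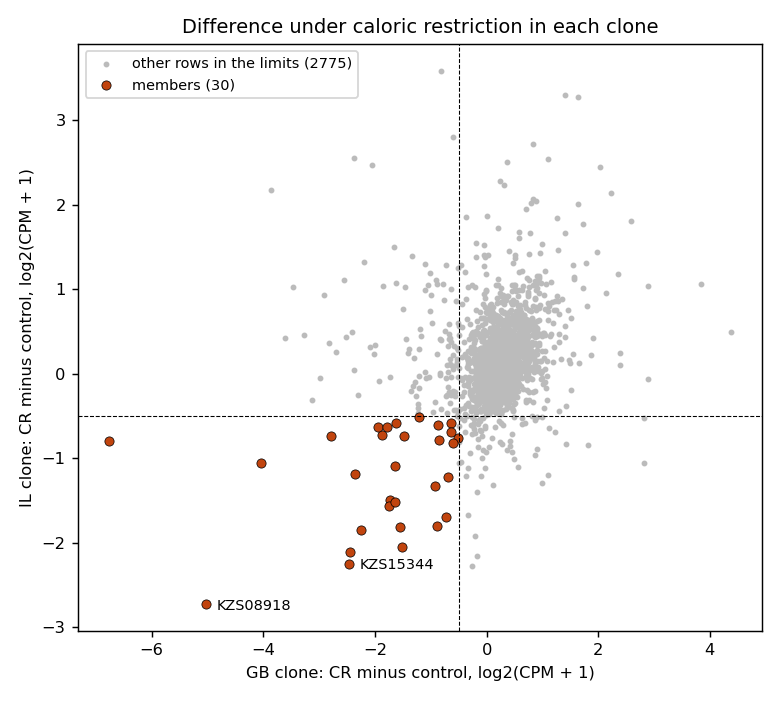
Each point is a row in the limits of the rule, with the CR minus control difference in GB on the x axis and in IL on the y axis, both as mean log2(CPM + 1) of 3 females against 3. The 30 members (orange) fill the corner below -0.5 on both axes (dashed lines), while the median of all rows lies at 0.26 and 0.05.

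The CR females lay below every control female of their clone in both clones in 10 of the 30 members; this pattern was met by 0.535% of the 2805 rows. It held in GB in 18 members (2.5% of rows) and in IL in 13 (4.49% of rows). In a model over all 4965 rows with enough counts (edgeR quasi-likelihood test, Benjamini-Hochberg adjustment), all 30 members were tested and 16 were lower in CR at an adjusted p under 0.05, against 1.31% of the rows tested. DESeq2 called 25 members, and 343 rows in all. With a linear term for library number, edgeR called 0 members, and 1 row in all. Before adjustment that model had 17 members and 433 rows at a p under 0.05. Both sets of counts rest on the libraries that chose the members and describe them only.

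KZS08918 had the largest difference in its less affected clone. In GB it measured 72.4, 3.59 and 199 CPM in the control females and 0.315, 0.484 and 0 CPM in the CR females. In IL it measured 19.02, 10.97 and 1.65 CPM in control and 0.713, 0.182 and 0.0869 CPM in CR. Every CR female lay below every control female of her clone, although the control females of GB differed among themselves by far more than the CR females. The CR levels rest on 9 reads in GB and 11 in IL. The log2 fold change in the edgeR model was -7.03 ± 1.36 (SE).

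KZS15344, the next by the same measure, owed its place to single control females. Its control levels were 0.726, 2.55 and 286 CPM in GB and 10.1, 246 and 1.02 CPM in IL, and its CR levels were 1.34, 2.03 and 0.479 CPM in GB and 1.61, 1.73 and 6.34 CPM in IL. The groups overlap: 1 control female in each clone stood far above the rest and the others were near the CR females. Its edgeR log2 fold change was -5.38 ± 1.60, and without GB control replicate 3 or without IL control replicate 2 it was no longer a member.

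The most abundant members were KZS14744 and KZS13674. KZS14744 measured 2244, 5574 and 1322 CPM in the GB controls against 999, 1027 and 730.2 CPM in GB CR, and 1415, 230.2 and 3671 CPM in the IL controls against 774, 427 and 783 CPM in IL CR. The groups were separate in GB and overlapped in IL, where control replicate 2 was the lowest of all 6. Its log2 fold change was -1.74 ± 0.489 in edgeR, and it was no longer a member without IL control replicate 3 or without IL CR replicate 2. KZS13674 measured 1514, 748 and 1102 CPM in the GB controls and 314, 390.2 and 353 CPM in GB CR. In IL it measured 2113, 1761 and 1969.6 CPM in control and 1389, 1336 and 1171 CPM in CR, so the groups were separate in both clones (edgeR log2 fold change -1.25 ± 0.277).

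**Figure D2:**
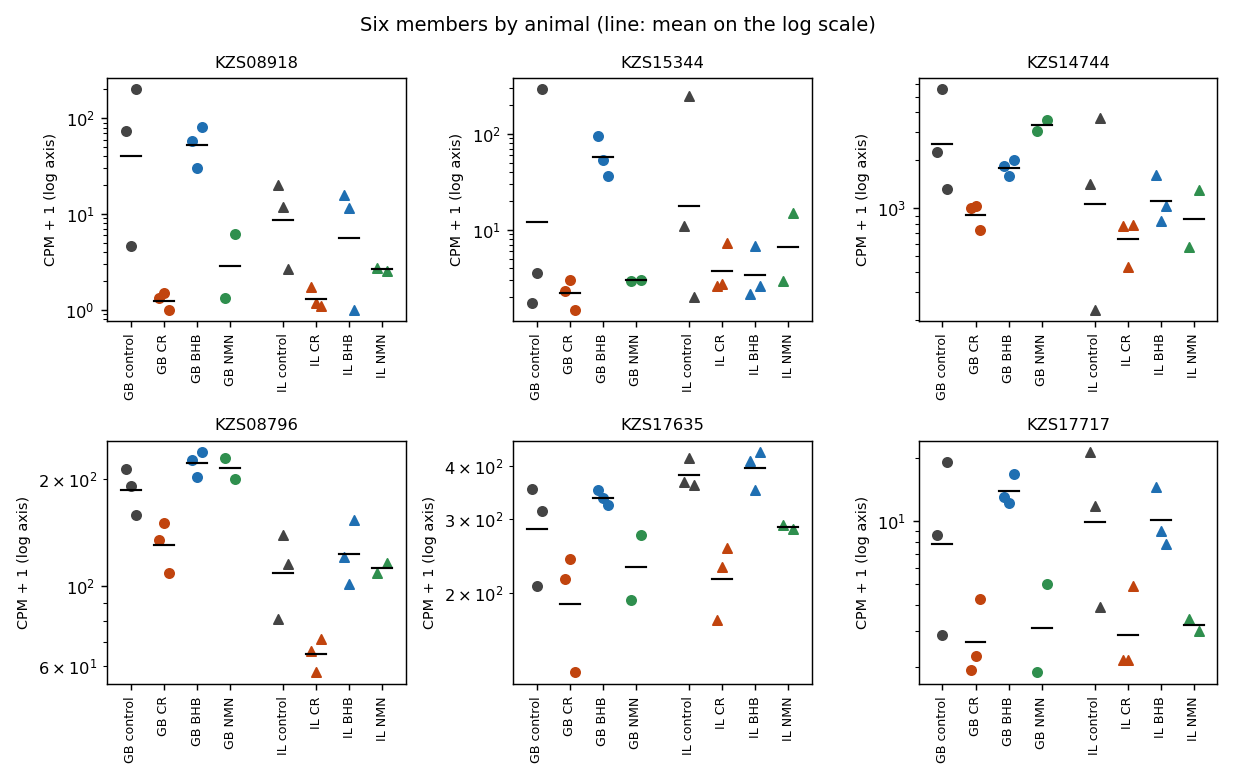
CPM + 1 on a log axis for 6 members, by clone and treatment; each point is 1 female (circles GB, triangles IL) and each line the mean on the log scale. KZS08918 is lower in all CR females than in any control of the clone, KZS15344 is high in 1 control female per clone and in the GB BHB females, and KZS17635 lies higher in BHB than in NMN in both clones.

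The control females fell into different patterns across the members. In 13 of the 30 members, 1 control female held over 50% of the summed control CPM of her clone in both clones, a pattern met by 5.88% of the 2805 rows. The rule used these control values, and a single high control female helps a row to meet it, so this count is a description only. Of the 10 members that were highest in GB control replicate 2, 9 were highest in IL control replicate 3. Of the 10 that were highest in GB control replicate 3, 0 were highest in IL control replicate 3, 5 were highest in IL control replicate 1 and 5 in IL control replicate 2. Such counts were not taken over the 2805 rows, so these cannot be called particular to the members. KZS16924 and KZS06293, named after their values were seen, had their peaks where KZS15344 had them, at 349 and 157 CPM in GB control replicate 3 and 174 and 124 CPM in IL control replicate 2. In the other control females KZS16924 lay between 0 and 9.67 CPM and KZS06293 between 5.81 and 17.6 CPM. The replicate numbers are not stated to mark anything shared by the clones. The most abundant row of the table took 1.91% of counts in GB control replicate 2 and 2.64% in IL control replicate 3, against 5.69% to 8.32% in the other control libraries; its part in these patterns was not tested.

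**Figure D3:**
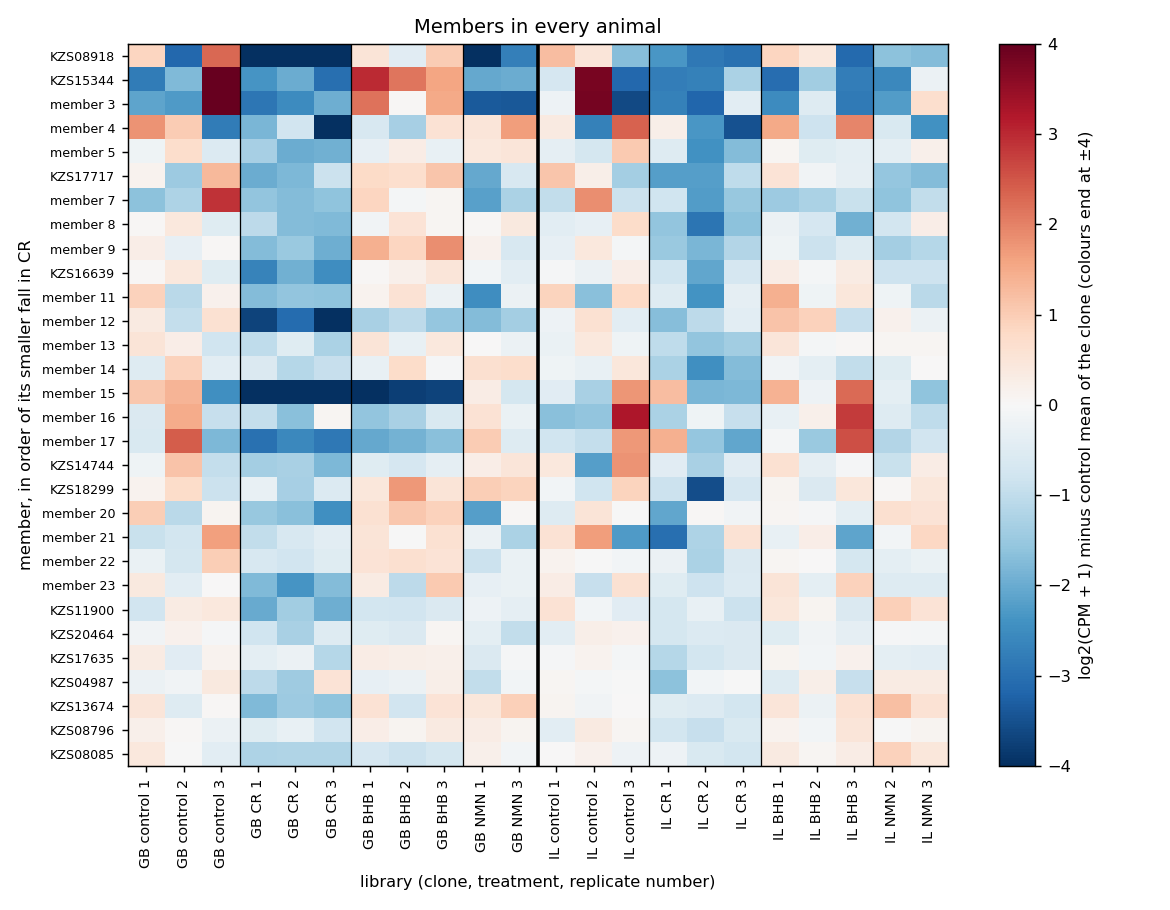
Rows are the 30 members, ordered from the largest to the smallest of their lesser clone difference in CR, and columns the 22 libraries; colour is log2(CPM + 1) minus the control mean of the clone. IDs are given for the members named by the rule and a number for the others. The CR columns are blue in nearly all rows, and single control females stand out in red.

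Membership depended on single females in many cases. When each library was left out in turn and the rule applied again, 10 members were found every time and 20 were lost at least once, each of them without at least 1 control library. Between 24 and 30 of the members were found again in each of these runs. KZS08918 and KZS13674 were among the 10 found every time. The number of rows that met the rule was 62 without IL CR replicate 1 and 48 without GB control replicate 2.

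Reads of 3 members may be shared with other rows, because their IDs stand on more than 1 row. The member row of KZS13699, at a mean of 47.0 CPM, was lower in CR by -1.51 in GB and -2.05 in IL. A row of the same ID, at 673 CPM, differed by -0.19 in GB and by 1.38 in IL, and a further one at 34.997 CPM by -0.37 and 1.86, so the rows of KZS13699 differed in direction in IL. For KZS14750 and KZS15419 the other row held few reads, at 1.75 and 0.865 CPM against 439 and 159.8 CPM in the member row. All 3 were named for their shared IDs, after their values were seen.

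The BHB females were set beside the full-diet controls to ask whether the ketone body moves the members as restriction does. The control libraries are the ones that chose the members, so the values are given without reading a direction from them. The median member differed from control by 0.16 in GB and by 0.01 in IL on the log2(CPM + 1) scale, where the 2805 rows had medians of 0.02 and -0.01. Averaged over the clones member by member, the median was -0.13, and by edgeR it was -0.31, with 18 members below control against 51.8% of the rows tested, so the sign of the median depended on how it was taken. In both clones 4 members were below control, against 16.9% of the 2805 rows, and 8 were above, against 19.3%. None (0) reached -0.5 or 0.5 in both clones, as 0.143% of the rows did for each, and none (0) had all BHB females of both clones below all controls (0.178% of rows). At -0.5 or less were 6 members in GB and 8 in IL, against 7.09% and 2.5% of rows. In edgeR no member passed (0 of 30, also 0 before adjustment at 0.05 and 0 by DESeq2), where 0% of the 4965 rows passed and 3.04% had an unadjusted p under 0.05. The mean level of the members per female, in log2 units from the control mean of the clone, was -0.08 ± 0.163 in BHB (SD, n = 6) and -1.53 ± 0.407 in CR (n = 6), with a spread of 0.135 among the controls.

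KZS20464 and KZS04987 had the lowest values in BHB by the less affected clone. KZS20464 measured 8.46, 7.88 and 12.8 CPM in GB BHB against 11.04, 13.8 and 11.8 CPM in the GB controls, and 6.51, 8.68 and 7.34 CPM in IL BHB against 6.97, 11.6 and 10.9 CPM in the IL controls. The groups overlap in both clones, and the log2 fold change of -0.34 ± 0.208 did not pass in edgeR (adjusted p = 0.999). KZS04987 had a log2 fold change of -0.20 ± 0.346 (edgeR adjusted p = 0.999).

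KZS16639 and KZS08796 had the highest values. KZS16639 measured 8.62, 9.88 and 12.2 CPM in GB BHB and 11.7, 8.68 and 11.7 CPM in IL BHB. Its controls were at 8.71, 11.7 and 5.71 CPM in GB and 8.94, 7.73 and 11.4 CPM in IL, so BHB and control overlap. Its CR levels were 0.473, 1.45 and 0.671 CPM in GB and 4.90, 1.45 and 5.39 CPM in IL, below all of these. The BHB log2 fold changes of KZS16639 and KZS08796 were 0.22 ± 0.402 and 0.21 ± 0.127 (edgeR adjusted p = 0.999 for each).

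Under BHB, KZS15344 measured 94.3, 51.9 and 34.9 CPM in GB BHB and 1.16, 5.75 and 1.61 CPM in IL BHB, differences of 2.23 and -2.39 from control on the log2(CPM + 1) scale. KZS15417, named after its values were seen, had the most negative CR difference in GB, with 828.8, 1011 and 70.6 CPM in control and 3.07, 3.97 and 1.34 CPM in CR. In IL CR it measured 85.3, 9.26 and 9.38 CPM, which overlapped the IL controls. It was no longer a member without IL control replicate 3, without IL CR replicate 2 or without IL CR replicate 3. In BHB it measured 18.9, 28.0 and 29.2 CPM in GB and 94.5, 30.4 and 172 CPM in IL, against IL controls of 25.2, 13.6 and 124 CPM. The GB BHB females thus lay below all GB controls and the IL BHB females overlapped the IL controls. The difference between clones in the BHB effect was tested for all rows. No member passed (0 of 30 in edgeR, 0 by DESeq2), and 4 had an unadjusted p under 0.05, against 7.59% of the rows tested; 0% passed. For KZS15417 that difference was -5.49 ± 1.56 in log2 units (edgeR adjusted p = 0.613).

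NMN was set beside the same controls. The median member differed from control by -0.28 in GB and -0.31 in IL, where the 2805 rows had medians of 0.15 and 0.05 on the log2(CPM + 1) scale. By edgeR the median was -0.57, with 24 members below control against 51.9% of the rows tested. In both clones 14 members were below control, against 8.98% of the 2805 rows, and 4 were above, against 48.4%. At -0.5 or less in both clones were 6 members (0.535% of rows), with 12 in GB (4.06%) and 13 in IL (2.75%); 1 was at 0.5 or more in both (0.82%), and 0 had all NMN females of both clones below all controls (0.143%). These shares rest on the controls that chose the members. They also rest on scaling by library totals, under which the 2805 rows had medians above control. In edgeR no member passed (0 of 30 and 0 by DESeq2; 8 before adjustment, of which 7 were lower), where 0% of rows passed and 5.16% had an unadjusted p under 0.05. The mean level per female was -0.46 ± 0.129 in NMN (SD, n = 4) and lay between -0.63 and -0.32, below all 6 controls, which lay between -0.16 and 0.23. The BHB females lay between -0.28 and 0.13. These controls chose the members and are centred on their own clone means, so this order is a description only. By the median over the members, the NMN females lay between -0.40 and -0.15 and the lowest control at -0.13. By that measure IL BHB replicate 3 was at -0.35, so BHB and NMN females overlapped.

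**Figure D4:**
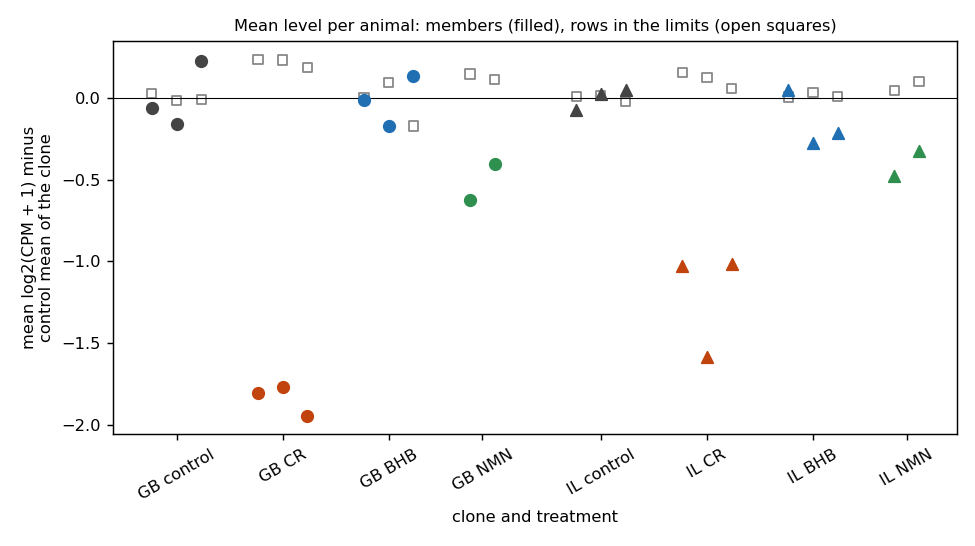
Filled symbols give the mean over the 30 members of log2(CPM + 1) minus the control mean of the clone, 1 per female (circles GB, triangles IL); open squares give the same over the 2805 rows in the limits. The CR females lie between -1.95 and -1.02, the NMN females between -0.63 and -0.32 and the BHB females between -0.28 and 0.13, while the open squares stay between -0.17 and 0.24. The controls that set the baseline also chose the members.

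KZS08918 and KZS15344 had the lowest values in NMN by the less affected clone. Both were compared with the controls that placed them first in CR. KZS08918 measured 0.324 and 5.17 CPM in GB NMN and 1.73 and 1.56 CPM in IL NMN. GB NMN replicate 3 lay above the lowest GB control, and 1 IL NMN female lay above the lowest IL control, so the groups overlap in both clones. Its log2 fold change was -4.001 ± 1.31 (edgeR adjusted p = 0.937). KZS15344 measured 1.95 and 2.04 CPM in GB NMN and 1.96 and 13.97 CPM in IL NMN (log2 fold change -4.17 ± 1.79, edgeR adjusted p = 0.937). The control females outside its peaks had 0.726 to 10.1 CPM, a range that held all NMN females but 1.

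KZS13674 and KZS18299 had the highest values in NMN. KZS13674 measured 1467 and 2081 CPM in GB NMN and 4514 and 2869 CPM in IL NMN. The IL NMN females lay above all IL controls and the GB females overlapped theirs (log2 fold change 0.69 ± 0.299, edgeR adjusted p = 0.937). KZS18299 measured 16.4 and 15.3 CPM in GB NMN against 8.79, 13.7 and 3.83 CPM in the GB controls, with a log2 fold change of 0.34 ± 0.508 (edgeR adjusted p = 0.992).

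BHB against NMN uses neither the control nor the CR libraries in its contrast, though the limits on level and clone were set over all 22 libraries. The fit also estimated the spread of each row over all 22 libraries, so its p-values depend on the control and CR females too. With those limits taken from the control and CR libraries alone, 30 rows met the rule, 28 of them members. KZS12501 was lost because its mean CPM was 4.001 there and 6.595 over all libraries, and KZS16109 because the clones differed by 3.04; both were named after their values were seen. By edgeR, 20 of the 30 members were higher in BHB than in NMN and 10 lower, where 51% of the 4965 rows were higher. The median log2 fold change was 0.30, with a range of -1.40 to 3.46, and the median over all rows tested was 0.00486. No member passed the threshold (0 of 30, and 1 by DESeq2, which called 7 rows in all), and 0.0201% of all rows did in edgeR. At an unadjusted p under 0.05 there were 8 members, 7 higher and 1 lower in BHB, against 6.2% of the rows. Among the 30 rows with limits from control and CR alone, 20 were higher and 10 lower, with 5 and 1 before adjustment and 0 passing. On the log2(CPM + 1) scale 12 members were higher in BHB in both clones and 7 lower, against 8.98% and 48.2% of the 2805 rows. The 2805 rows had medians of -0.14 in GB and -0.07 in IL on this scale, which is set by library totals. Their shares therefore lean to lower values, unlike the 51% by edgeR under TMM. The clone difference in this contrast did not pass for any member (0 of 30 in edgeR, 0 by DESeq2; 5 before adjustment, against 8.92% of rows, of which 0% passed). In NMN against control it did not pass either (0 of 30, 0 by DESeq2; 3 before adjustment, against 3.1% of rows).

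**Figure D5:**
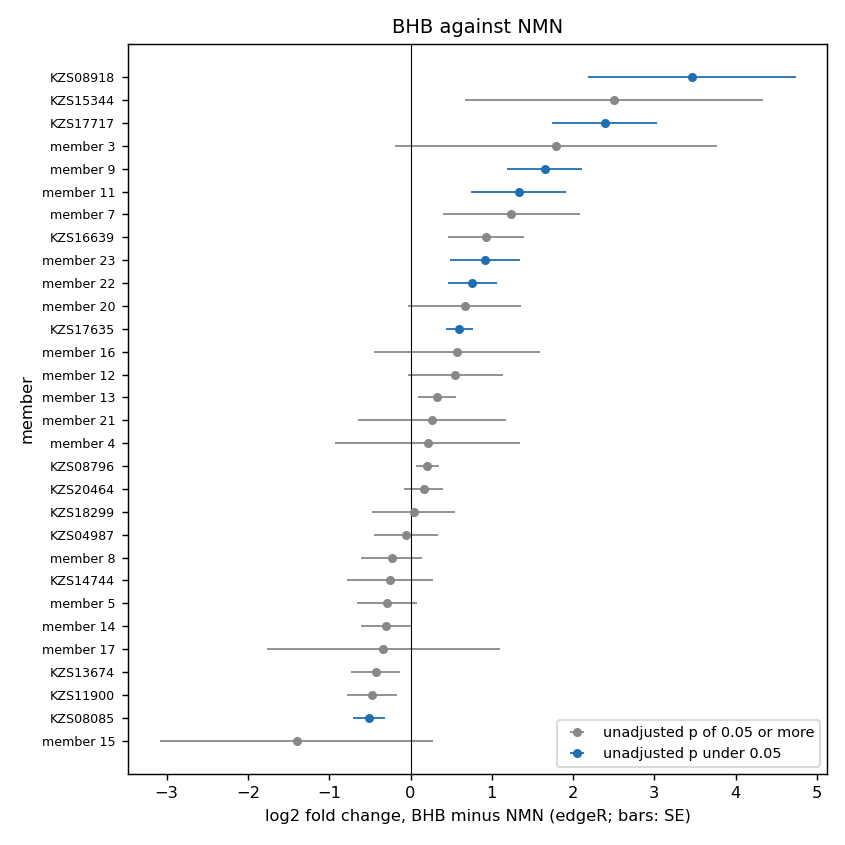
The log2 fold change of BHB minus NMN from edgeR (x axis; bars are SE) for each of the 30 members (y axis), with those at an unadjusted p under 0.05 in blue. Of the 30, 20 lie right of 0, and KZS08918 is highest at 3.46; no member passes the adjusted threshold.

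The smallest p-values belonged to KZS17635 and KZS17717, both higher in BHB. KZS17635 measured 350.3, 335 and 323 CPM in GB BHB against 191 and 274 CPM in GB NMN, and 411, 349.6 and 431 CPM in IL BHB against 289 and 283 CPM in IL NMN. BHB and NMN females did not overlap in either clone. The log2 fold change was 0.60 ± 0.162 and did not pass in edgeR (adjusted p = 0.405; 0.128 to 0.859 over 16 alternatives). In the controls KZS17635 was at 353, 206 and 312 CPM in GB and 366, 417 and 360.2 CPM in IL. It measured 214, 239 and 128 CPM in GB CR and 171, 229 and 254 CPM in IL CR, so control and CR overlapped in GB and were separate in IL.

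KZS17717 measured 12.1, 11.3 and 15.9 CPM in GB BHB against 0.892 and 3.99 CPM in GB NMN, and 13.6, 8.03 and 6.82 CPM in IL BHB against 2.42 and 1.97 CPM in IL NMN. Here too the females of the groups did not overlap in either clone. Its CR levels were 0.946, 1.26 and 3.26 CPM in GB and 1.16, 1.18 and 3.91 CPM in IL, so the IL NMN females lay within the CR range and the GB NMN females just below and just above it. Its controls were at 7.55, 1.87 and 18.2 CPM in GB and 20.4, 10.8 and 2.91 CPM in IL. The lowest control female of each clone thus lay within the CR range too. The log2 fold change of 2.39 ± 0.647 did not pass in edgeR (adjusted p = 0.405; 0.024 to 0.783 over 16 alternatives), and the lowest of these, 0.024, came from DESeq2.

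KZS08085 and KZS11900 had the smallest p among those lower in BHB. KZS08085 measured 184, 159.6 and 180.4 CPM in GB BHB against 337 and 272 CPM in GB NMN, and 247, 205 and 240.5 CPM in IL BHB against 366 and 266 CPM in IL NMN. The groups did not overlap in either clone, and the log2 fold change was -0.51 ± 0.194 (edgeR adjusted p = 0.714). KZS11900 had a log2 fold change of -0.47 ± 0.305 (edgeR adjusted p = 0.875).

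Against CR, all 30 members were higher in BHB and all 30 higher in NMN by edgeR, against 49.3% and 48.8% of the rows tested, which the CR libraries that chose them cannot test. In edgeR 16 members were higher in BHB than in CR at an adjusted p under 0.05, against 1.33% of the rows tested, and 8 were higher in NMN than in CR, against 0.222%. DESeq2 called 21 and 9 members, and 323 and 105 rows in all. With a linear term for library number, edgeR called 0 and 0 members, and over all rows 0 and 1. Before adjustment that model had 13 and 13 members, and 375 and 367 rows in all. Without GB NMN replicate 3, the count of 8 members for NMN against CR was 1. KZS08796 measured 225, 201 and 236 CPM in GB BHB and 119.9, 100.2 and 153 CPM in IL BHB, against 134, 149 and 108 CPM in GB CR and 64.8, 56.4 and 70.3 CPM in IL CR, with no overlap in either clone.

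The members did not vary as 1 unit between females. In the 10 BHB and NMN libraries, with each group centred on its mean, the median Pearson r over the 435 pairs of members was 0.06, against 0.14 over all pairs of the 2805 rows. The points of a pair share the library and its depth, and 4 group means were taken out of 10 points, so r is given as a description. An r of 0.8 or more was found in 3.68% of member pairs and in 7.35% of all pairs, and an r of -0.8 or less in 2.30% and 1.75%. KZS15344 and KZS16924, which peaked in the same control females, had an r of 0.86 in these other libraries. KZS06293, which also peaked in those females, had an r of 0.52 with KZS15344 and 0.45 with KZS16924. The highest r, 0.94, joined KZS06881 and KZS08796, and KZS08918 had its highest, 0.91, with KZS16377; these IDs were named after their values were seen. The lowest r was -0.93, between KZS15419 (its member row) and KZS08028.

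Levels in the clones differed from member to member. GB was higher than IL over all libraries in 17 members and lower in 13, and 12 members differed by 1 or more on the log2(CPM + 1) scale, against 8.13% of the 2805 rows. The rule capped this difference at 3, and it is not tested here. KZS13674 was higher in IL by 1.21 in this measure (-1.21 for GB minus IL), and KZS14744 was higher in GB by 1.02.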

How the data were processed

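RNA-seq covered 22 libraries, each of 1 female. Per the labels, the deposited values are unnormalized sense counts for each gene model. A directional kit was used, per the labels' protocols. STAR, DESeq2, FastQC and Trim Galore (0.4.5) appear in the submitters' processing notes; the counting tool, annotation and genome build were not given in the sources used here. The title letter L was taken as CR because C, B and N match the other treatments. Libraries held 8503141 to 14353733 counts, so the lowest members rest on few reads.

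CPM are counts divided by the column total. Tests used edgeR 4.0.16 in R 4.3.3 (quasi-likelihood, robust, TMM, filterByExpr with minimum count 10, terms for clone and treatment), adjusted over 4965 rows at 0.05; clone differences came from 8 group means. SE is the fold change over the root of F. DESeq2 1.42.0 and other alternatives were tried. A suffix tells rows of an ID apart. Members and lists were chosen with earlier results of these data known. IDs named were the 2 with the largest lesser clone difference in CR, the 2 lowest and 2 highest by the lesser clone difference in BHB and in NMN, the 2 smallest p in each direction between BHB and NMN, and the 2 most abundant. The design text says that females of a clone stem from 3 grandmothers; the labels do not say that replicate numbers mark them.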

Additional observations from a re-analysis of the deposited data

Results flagged for a closer look

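In 56 groups of 4 to 6 females (13 named members and the mean level of the members, in each treatment over both clones), 4 single females stood apart by Dixon's ratio: the gap to the nearest other female, over the range of the group, exceeded its 95% critical value. Chance flags about 1 group in 20 under that value, and the 56 groups share libraries and control means, so they are not independent. Values are log2(CPM + 1) minus the control mean of the clone. KZS18299 was at -3.55 in IL CR replicate 2 (1.36 CPM), and the other CR females lay between -1.33 and -0.31. KZS20464 was at -1.30 in GB CR replicate 2, with the others between -0.79 and -0.53. KZS08918 was at -3.10 in IL BHB replicate 3, where it had 0 reads, with the others between -0.44 and 1.00. KZS14744 was at -0.89 in IL NMN replicate 2 (573 CPM), with the others between 0.27 and 0.49. No member had a difference between clones in its BHB or NMN effect that passed the threshold.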

How the results depend on the processing

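The number of rows that met the rule was 30, and 56 with TMM-scaled library sizes, 54 with totals without the 50 most abundant rows and 48 with a threshold of -0.4; it was 27 to 62 when a library was left out, and 30 with limits from the control and CR libraries alone, an alternative chosen after seeing the data. Of the 30 members, 28 met it under both scalings. The median of BHB minus control, -0.13, ran from -0.18 to 0.12 without single libraries, and that of NMN minus control, -0.33, from -0.48 to -0.20. The members called in CR numbered 16, and 25 in DESeq2, which called 343 rows in all. With library number as a linear term 0 were called in CR, in BHB against CR and in NMN against CR (17, 13 and 13 members at an unadjusted p under 0.05 in edgeR). Over all rows that model called 1, 0 and 1. All CR libraries have the highest numbers. NMN against CR called 8 members, 4 with no filter on low counts and 1 to 7 without single libraries. DESeq2 called 1 member between BHB and NMN, and 7 rows in all. With the replicate number as a block, 16 members were called in CR and 15 in BHB against CR. NMN against CR had 7, and each other comparison 0, so the block moved no count of calls by over 1.5 times. Deviations of same-numbered libraries had a median r of 0.0246 over 30 pairs, 8 of them over 0.1, with a range of -0.485 to 0.537. Centring on small groups ties these values to each other, so they cannot decide whether the numbers pair females. The main fits did not pair them. No named member changed sign in 272 alternatives, each a member, a comparison and a setting, so many come from the same refit. The cause of these shifts was not tested. Counting error is larger where a group holds few reads, which is not only in the members under 10 CPM. KZS08918, at a mean of 23.2 CPM, had 9 reads in GB CR and 11 in IL CR.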
